A study of Mus musculus with 106 samples.

Results

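Serotonin is released by neurons of the raphe nuclei in the brain stem and acts on a family of receptors that differ in the signal they start. The genes *Htr1a*, *Htr1b*, *Htr1d* and *Htr5a* encode receptors that couple to inhibitory Gi/o proteins, *Htr2a* and *Htr2c* encode receptors that raise calcium through Gq, *Htr3a* encodes the subunit that forms the only serotonin-gated ion channel, and *Htr4* and *Htr7* encode receptors that raise cyclic AMP through Gs. In the striatum and cortex these receptors set the excitability of projection neurons and interneurons and the release of transmitter from their terminals. The 9 receptor genes described here were chosen by name from 55401 mouse genes in the count table, and all 9 were found. The remaining serotonin receptor genes of the mouse, *Htr1f*, *Htr2b*, *Htr3b*, *Htr5b* and *Htr6*, were kept as a separate list of 5.

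RNA on tagged ribosomes (RiboTag IP) and total RNA were sequenced from brains of mice with a long CAG repeat in the huntingtin gene and from controls without it. HD mice were heterozygous Hdh Q7/Q200 knock-in animals and controls were Hdh Q7/Q7, on a 129S4 background and about 9 months old. They carried 1 copy of the Cre-dependent *Rpl22*-HA allele and 1 copy of a Cre driver, which was vGluT2-IRES-Cre for glutamatergic neurons, Gad2-IRES-Cre for GABAergic neurons in general, or PV-IRES-Cre for parvalbumin neurons. Libraries labelled SST (somatostatin) came from a further line whose driver and age the study's methods do not describe. A Cre driver tags all cells that expressed it at any time, so a line is a model of a population and not of a single cell class. The cerebrum was the brain without cerebellum and olfactory bulb, and therefore included the brain stem. Each PV+ IP pooled the product of a pair of IPs from a single homogenate.

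There were 106 libraries, 67 of IPs and 39 of total RNA, from 45 mice. Control and HD IPs numbered 6 and 6 for cerebral Gad2+, 6 and 5 for PV+, 5 and 4 for SST+, 6 and 6 for cerebral vGluT2+, 6 and 6 for cerebellar Gad2+, and 5 and 6 for cerebellar vGluT2+ neurons. An HD library of each of the PV+, cerebral vGluT2+ and cerebellar Gad2+ groups was a re-sequenced one. Total RNA of the cerebrum came from 9 control and 9 HD mice of the Gad2, PV and vGluT2 lines, and from 4 control and 3 HD mice of the SST line. In the SST line, control IPs 3, 4 and 6 and control total RNA libraries 3 and 4 came from mice with labels starting with Z. The other SST libraries, with all HD ones among them, came from mice with labels starting with BR. The part of these label series in the SST comparisons was not tested. Total RNA of the cerebellum came from 7 control and 7 HD mice. Counts on mouse genes per library ran from 21905221 to 107753586 with a median of 35866725. Levels are given as CPM with TMM scaling over all 106 libraries.

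Marker genes were read in the control IPs to check the labels. The GABAergic list of 3 genes (*Gad1*, *Gad2*, *Slc32a1*) summed to a mean of 2737 CPM in cerebral Gad2+ IPs, 2565 in PV+, 1341 in SST+ and 2995 in cerebellar Gad2+ IPs, against 650 in cerebral and 791 in cerebellar total RNA. It summed to 81.8 in cerebral and 183 in cerebellar vGluT2+ IPs. The 5 genes of the parvalbumin list summed to 4849 in PV+ IPs and 1950 in cerebral total RNA, and the 5 of the somatostatin list to 1944 in SST+ IPs, led by *Sst* itself at 1326, and 451 in cerebral total RNA. The parvalbumin list was not particular to PV+ IPs. It summed to between 3006 and 3922 in cerebral and between 5354 and 8425 in cerebellar Gad2+ IPs. The 4 genes of the vGluT2 list summed to 312 in cerebral vGluT2+ IPs and 174 in cerebral total RNA, while the vGluT1 list summed to 2481 in these IPs and was led by *Slc17a7* at 2061. The vGluT1 list also summed to 1366 in cerebellar vGluT2+ IPs. In cerebellar vGluT2+ IPs the vGluT2 list summed to 87.9 with 1 gene at 0, under the 104 of cerebellar total RNA and the 288 of cerebellar Gad2+ IPs, where *Prkcd* alone gave 282, so the list did not single out vGluT2 neurons in the cerebellum. *Slc17a6*, the vGluT2 gene itself, was at 45 CPM in cerebellar vGluT2+ and 4.31 in cerebellar Gad2+ IPs. The granule cell list reached 9523 in cerebellar vGluT2+ IPs, led by *Cbln3* at 4746. It was the highest of the cerebellar lists in these IPs. Cerebellar Gad2+ IPs were led by the Purkinje cell list at 9524, and cerebral Gad2+ IPs by the list of 10 genes of striatal projection neurons at 6429. Genes of cells that were not the target were also read in the control IPs. The 5 oligodendrocyte genes summed to between 2492 and 4359 CPM in SST+ (4437 to 5272 in total RNA of that line), 1436 to 2305 in PV+, 371 to 1434 in cerebral Gad2+ and 286 to 646 in cerebral vGluT2+ IPs. The vGluT1 list summed to between 676 and 981 in SST+, 789 and 1014 in PV+ and 132 and 446 in cerebral Gad2+ IPs. The IPs thus held differing amounts of such RNA, and its part in the comparisons between cell types was not tested.

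Libraries also differed in base composition, which was noticed after the data had been seen. It was measured as the mean log2 level of 1767 protein-coding genes with a GC content under 43% minus that of 3773 genes over 55%. This AU-rich minus GC-rich contrast ran from -2.60 to 0.42 in cerebral total RNA (median -1.18), but was -0.34, -0.05, 0.02 and -0.11 at the median in cerebral Gad2+, PV+, SST+ and vGluT2+ IPs. Single IP libraries also stood apart from their group. Control PV+ library 6 lay at -0.93 where its 5 companions lay between -0.12 and 0.12, and control cerebral vGluT2+ library 1 lay at -1.04 where its companions lay between -0.17 and 0.23. *Htr2a* and *Htr2c* were low in both libraries. HD libraries stood apart as well, among them SST+ library 4 at -1.12 (companions -0.09 to 0.44), cerebellar Gad2+ library 4 at -1.01 (0.04 to 0.36) and PV+ library 2 at -0.83 (-0.15 to 0.24). Every comparison was therefore repeated with the contrast as a covariate, a choice made after these values had been seen, and the result is given where a call differed. Between IPs and total RNA the contrast moved largely with the kind of library. In those comparisons the covariate cannot fully tell composition from enrichment, and its values show only how far a call depends on it.

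A few further libraries stood apart by markers. Control cerebellar total RNA library 4 of the vGluT2 line summed to 11.9 CPM over the 4 genes of the serotonin neuron list (*Tph2*, *Slc6a4*, *Fev*, *Slc22a3*), where the other 13 cerebellar total RNA libraries lay at or under 3.61. The same library held the highest *Htr1a* (4.54 CPM), *Htr2a* (3.02) and *Htr7* (4.87) of all cerebellar total RNA. Control cerebellar vGluT2+ IP 5 reached 231 CPM over the vGluT2 list and 5.14 over the serotonin neuron list, against at most 79.9 and 1.31 in the other 4 control IPs, and held 5.29 CPM of *Htr1a* against at most 1.94. The re-sequenced HD cerebral vGluT2+ IP summed to 0.0202 CPM over the serotonin neuron list, against 6.03 to 9.38 in the other 5 HD IPs, and was lowest for *Htr7* and highest for *Htr5a* in its group. Cerebellar markers were high in HD PV+ IP 3, at 1569 CPM over the 5 Purkinje cell genes and 551 over the 5 granule cell genes, and in control PV+ IP 2, at 657 and 259. The other 9 PV+ IPs lay between 68.4 and 219 and between 42.3 and 98.6. The part of these markers in the receptor levels of the PV+ IPs was not tested.

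Which neurons carry each receptor was asked first by comparing IPs with total RNA. Total RNA holds transcripts of every cell of the tissue, while an IP is meant to hold those on ribosomes of the tagged neurons. A higher level in the IP may reflect those neurons or their ribosomes. It does not by itself place a transcript there, since IPs also held RNA of other cells and differed from total RNA in base composition. In bulk libraries fewer cells of a type and less RNA per cell cannot be told apart. Both genotypes were used, with genotype as a covariate, and an adjusted p of 0.05 or less in edgeR was called. In cerebral Gad2+ IPs 7 of 9 receptors were called higher and 1 lower, in a comparison that called 63.5% of all genes tested. Of the 9 receptors, 4 were higher and 2 lower in PV+ IPs (73.2% of all genes called), 5 higher and 1 lower in SST+ IPs (63.4%), and 2 higher and 2 lower in cerebral vGluT2+ IPs (63.6%). *Htr3a* and *Htr4* were too low for the cerebellar tests, which left 7 receptors. Of these, 5 were higher and 0 lower in cerebellar Gad2+ IPs (67.4%), and 0 higher and 2 lower in cerebellar vGluT2+ IPs (68.3%). With shares this large over all genes, the counts do not set the receptors apart, and the values below are the result.

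Cell types and regions were also compared directly. GABAergic and glutamatergic neurons, and the PV+ and SST+ classes of interneuron, respond differently to serotonin, and the cerebellum receives a sparser serotonin input than the forebrain. Between cerebral vGluT2+ and Gad2+ IPs, 1 of 9 receptors was higher and 5 were lower in vGluT2+ IPs, where 41.5% of all genes were called. PV+ against Gad2+ IPs gave 1 higher and 6 lower (67.8%), and PV+ against SST+ IPs 0 higher and 4 lower (38.3%). In the cerebellum, vGluT2+ against Gad2+ IPs gave 0 higher and 5 lower of 7 (69.3%). Cerebellar against cerebral Gad2+ IPs gave 1 higher and 7 lower of 9 (65.6%), and the same comparison of vGluT2+ IPs gave 0 higher and 8 lower of 8 (72.6%). These comparisons share libraries, since each group of IPs enters several. By their labels the IPs of both regions also shared mice, and the values given for cerebellum against cerebrum did not pair them.

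**Figure D1:**
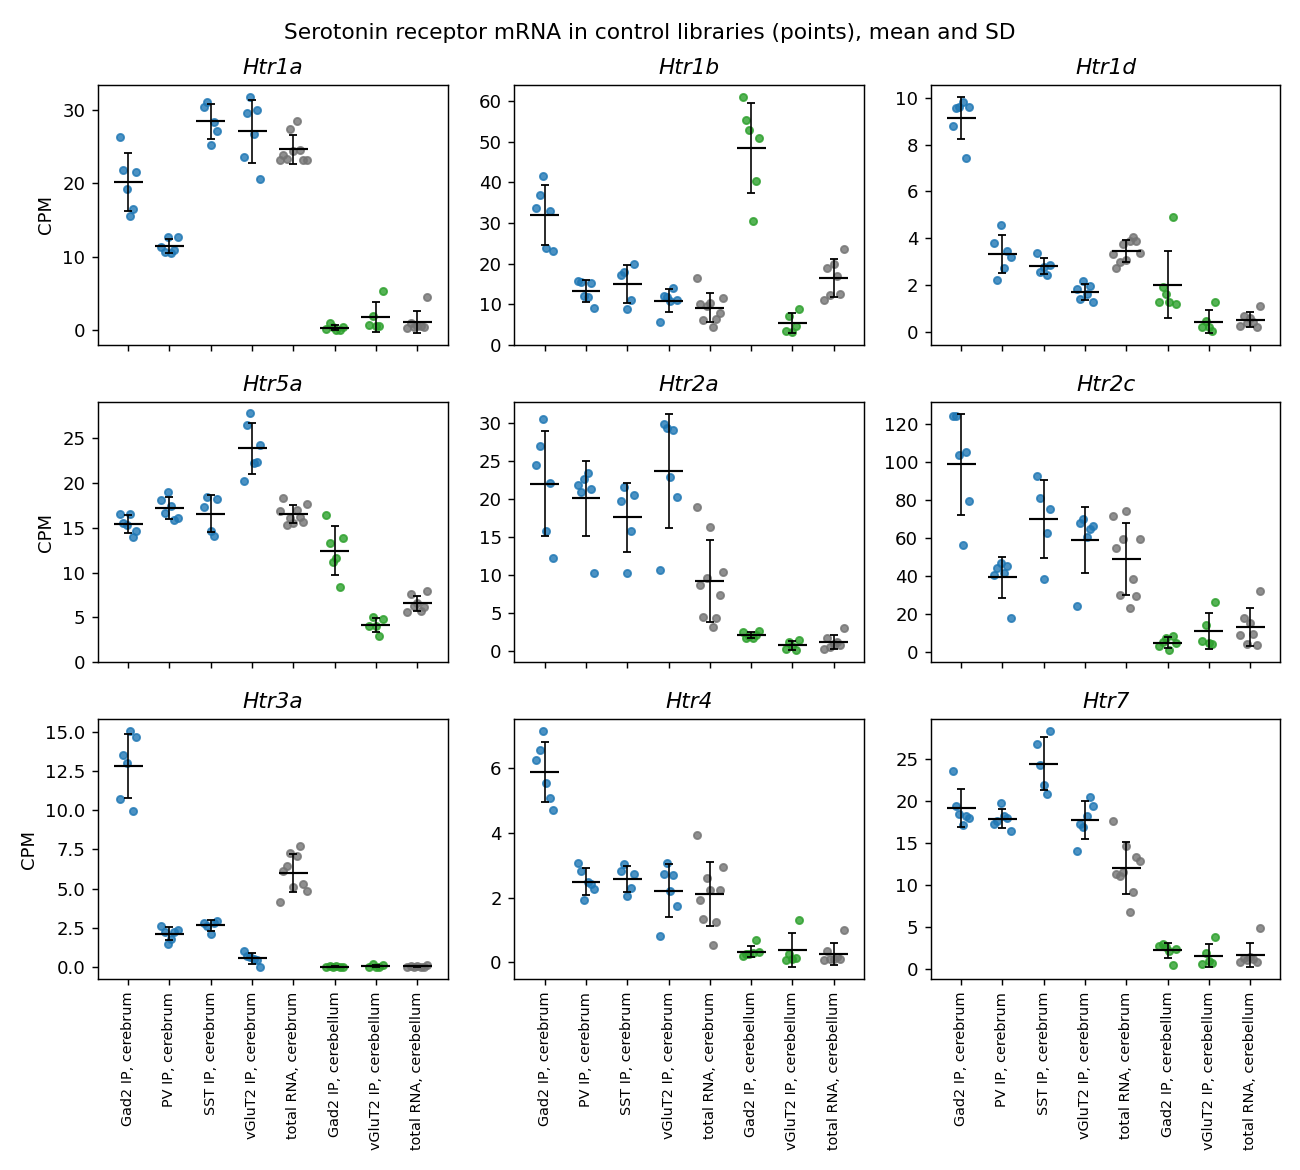
CPM of each serotonin receptor gene in every control library (points) by IP group and in total RNA, with mean and SD (lines). *Htr1b* is highest in cerebellar Gad2+ IPs (mean 48.5 CPM), while *Htr3a* is highest in cerebral Gad2+ IPs (12.8).

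*Htr1a* encodes the receptor that opens potassium channels in many forebrain neurons and serves as the autoreceptor of serotonin neurons. It lies on chromosome 13 at 105443639 to 105448122 (GRCm38, plus strand). Its control mean was 28.4 ± 2.38 CPM (SD, n = 5) in SST+ IPs, 27.1 ± 4.28 (n = 6) in cerebral vGluT2+ IPs, 24.6 ± 1.96 (n = 9) in cerebral total RNA and 20.1 ± 3.94 (n = 6) in cerebral Gad2+ IPs, and neighbours in this order overlapped in range. PV+ IPs followed at 11.4 ± 0.986 (n = 6), with no overlap. The cerebellum held 1.81 ± 2.03 (n = 5) in vGluT2+ IPs, 1.10 ± 1.53 (n = 7) in total RNA and 0.327 ± 0.345 (n = 6) in Gad2+ IPs, which overlapped. Over both genotypes *Htr1a* ran from 5.53 to 12.7 CPM in PV+ IPs (median 10.7), from 19.3 to 28.4 in cerebral total RNA (median 23.6), from 15.6 to 26.5 in cerebral Gad2+ IPs (median 21.6) and from 23.3 to 31.1 in SST+ IPs (median 27.2). All 11 PV+ IPs thus lay under every library of the other 3 groups. PV+ IPs had a log2 difference of -1.08 (SE 0.0854, adjusted p 2.94e-12) against total RNA, -0.98 (SE 0.124, adjusted p 1.75e-07) against Gad2+ IPs and -1.36 (SE 0.101, adjusted p 7.85e-10) against SST+ IPs. Against the total RNA of their own line (19.1 to 28.8 CPM, median 25.3) SST+ IPs were 0.24 higher in log2 (SE 0.0927, adjusted p 0.0279), with 5 of 9 IPs above the median and the ranges overlapping, and this was no longer called with the composition covariate (0.12, adjusted p 0.533). All cerebellar IPs lay under all cerebral ones, at -5.12 in log2 in Gad2+ and -4.72 in vGluT2+ IPs. DESeq2 called cerebral Gad2+ IPs lower than total RNA (-0.20, adjusted p 0.0374), which edgeR did not (-0.18, adjusted p 0.0644), and in control libraries alone vGluT2+ IPs were above Gad2+ IPs in the cerebrum (0.41, adjusted p 0.0426) and the cerebellum (2.43, adjusted p 0.0203). The cerebellar value includes control vGluT2+ IP 5, at 5.29 CPM where the other 4 held at most 1.94, and was not computed without it.

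*Htr1b* encodes the receptor that damps transmitter release at axon terminals, including those of striatal projection neurons and Purkinje cells. The gene lies on chromosome 9 at 81628291 to 81633828 on the minus strand, and 852 of its exon bases are also exon bases of the antisense gene *D430036J16Rik*. Control means fell in the order of cerebellar Gad2+ IPs at 48.5 ± 11.1 CPM (n = 6), cerebral Gad2+ IPs at 31.9 ± 7.27 (n = 6), cerebellar total RNA at 16.4 ± 4.65 (n = 7), SST+ IPs at 15.0 ± 4.75 (n = 5), PV+ IPs at 13.2 ± 2.65 (n = 6), cerebral vGluT2+ IPs at 10.9 ± 2.83 (n = 6), cerebral total RNA at 9.19 ± 3.56 (n = 9) and cerebellar vGluT2+ IPs at 5.42 ± 2.43 (n = 5). Each pair of neighbours in this order overlapped. Over both genotypes the level ran from 17.4 to 64.7 CPM in cerebellar Gad2+ IPs (median 51.6), from 5.29 to 23.5 in cerebellar total RNA (median 11.9) and from 1.01 to 8.77 in cerebellar vGluT2+ IPs (median 3.58). GABAergic and granule cell IPs of the cerebellum did not overlap. Their log2 fold changes against total RNA had opposite signs, 1.98 in Gad2+ IPs (SE 0.2, adjusted p 9.51e-10, all 12 above the total RNA median) and -1.63 in vGluT2+ IPs (SE 0.26, adjusted p 4.12e-06, all 11 below it), and vGluT2+ against Gad2+ IPs gave -3.54 (SE 0.266, adjusted p 8.79e-12). In the cerebrum *Htr1b* ran from 16.1 to 41.5 CPM in Gad2+ IPs (median 25.5), from 4.28 to 16.4 in total RNA (median 8.89), from 5.23 to 15.7 in PV+ IPs (median 12.1), from 5.25 to 19.9 in SST+ IPs (median 13) and from 2.99 to 13.9 in vGluT2+ IPs (median 10.6). Gad2+ IPs were high, and they overlapped the top of total RNA and of SST+ IPs but neither PV+ nor vGluT2+ IPs. Their log2 fold change was 1.52 against total RNA (SE 0.191, adjusted p 4.1e-08, all 12 above the median), and vGluT2+ and PV+ IPs lay -1.50 (adjusted p 1.02e-07) and -1.15 from them. PV+ IPs (0.46, adjusted p 0.0442, 10 of 11 above the median) and SST+ IPs (0.87, adjusted p 0.0108, 8 of 9) were also called higher than total RNA, but with the composition covariate the values were -0.24 (adjusted p 0.0332) and -0.46 (adjusted p 0.2). Cerebral vGluT2+ IPs were not called against total RNA, but lay -0.69 from it with the covariate (adjusted p 1.1e-05). Cerebellar Gad2+ IPs exceeded cerebral ones by 0.86 (SE 0.164, adjusted p 4.88e-05, 11 of 12 above the cerebral median), the only receptor that did.

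*Htr1d* encodes a second terminal receptor of the Gi/o class and lies on chromosome 4 at 136423524 to 136444398 (plus strand). Cerebral Gad2+ IPs led with a control mean of 9.13 ± 0.91 CPM (n = 6) and overlapped no other group. Cerebral total RNA (3.45 ± 0.47, n = 9), PV+ IPs (3.33 ± 0.815, n = 6), SST+ IPs (2.82 ± 0.357, n = 5), cerebellar Gad2+ IPs (2.03 ± 1.44, n = 6) and cerebral vGluT2+ IPs (1.72 ± 0.339, n = 6) followed with overlapping neighbours. Cerebellar total RNA (0.540 ± 0.312, n = 7) and cerebellar vGluT2+ IPs (0.449 ± 0.491, n = 5) were lowest. Over both genotypes cerebral Gad2+ IPs ran from 5.84 to 12.3 CPM (median 9.56), total RNA from 1.43 to 5.05 (median 3.21), PV+ IPs from 1.54 to 4.55 (median 2.93) and cerebral vGluT2+ IPs from 1.03 to 2.43 (median 1.9). No Gad2+ IP overlapped any of these. Against total RNA it came to a log2 fold change of 1.52 in Gad2+ IPs (SE 0.123, adjusted p 3.25e-12) and -0.89 in vGluT2+ IPs (SE 0.152, adjusted p 6.85e-06, all 12 below the median). Against Gad2+ IPs it was -2.36 in vGluT2+ (SE 0.145, adjusted p 2.84e-13) and -1.60 in PV+ IPs. In the cerebellum all 12 Gad2+ IPs (1.2 to 4.91 CPM, median 1.58) lay above all 14 total RNA libraries (0.21 to 1.14, median 0.57), higher by 1.63 in log2 (SE 0.254, adjusted p 2.08e-06), and vGluT2+ IPs (0 to 1.28, median 0.232) lay -2.36 from Gad2+ IPs. Cerebellar IPs were lower than cerebral IPs, at -2.34 in Gad2+ and -2.36 in vGluT2+ neurons.

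*Htr5a* encodes the last Gi/o receptor of the set, one found almost wholly in the nervous system, and lies on chromosome 5 at 27842149 to 27855088 (plus strand). Its control mean was highest in cerebral vGluT2+ IPs at 23.9 ± 2.88 CPM (n = 6), which overlapped no other group. PV+ IPs (17.2 ± 1.22, n = 6), SST+ IPs (16.6 ± 2.06, n = 5), cerebral total RNA (16.5 ± 1.0, n = 9), cerebral Gad2+ IPs (15.4 ± 1.02, n = 6) and cerebellar Gad2+ IPs (12.4 ± 2.76, n = 6) followed with overlapping neighbours. Cerebellar total RNA (6.56 ± 0.873, n = 7) and cerebellar vGluT2+ IPs (4.14 ± 0.828, n = 5) were apart from these and from each other. Over both genotypes *Htr5a* ran from 20.2 to 31.4 CPM in cerebral vGluT2+ IPs (median 23.3), from 14.2 to 19.4 in total RNA (median 16.9) and from 10.6 to 17.4 in Gad2+ IPs (median 15.4). Every vGluT2+ IP was above every library of the other 2 groups. These IPs had a log2 fold change that was 0.40 against total RNA (SE 0.075, adjusted p 3.27e-05) and 0.68 against Gad2+ IPs (SE 0.0912, adjusted p 7.71e-07). Gad2+ IPs were called lower than total RNA at -0.21 (SE 0.0803, adjusted p 0.0207, 11 of 12 below the median) and PV+ IPs (15.8 to 20.2 CPM, median 17.5) higher by 0.18 (SE 0.0651, adjusted p 0.0146, 8 of 11 above), but neither call held among mice with both kinds of library and the mouse as a block (-0.01, adjusted p 0.927, and 0.15, adjusted p 0.262). The second was also lost with the composition covariate (0.03, adjusted p 0.642) and the first with total RNA of the same line (-0.18, adjusted p 0.195) or library totals without TMM (-0.17, adjusted p 0.104). PV+ IPs exceeded Gad2+ IPs by 0.30 (SE 0.0777, adjusted p 0.0015, 11 of 11 above the median). In the cerebellum Gad2+ IPs ran from 8.36 to 17.2 CPM (median 13.6), total RNA from 4.18 to 7.89 (median 6.23) and vGluT2+ IPs from 2.41 to 5.02 (median 3.14). Against total RNA this was a log2 difference of 1.15 in Gad2+ (SE 0.114, adjusted p 6.83e-10, no overlap) and -0.88 in vGluT2+ IPs (SE 0.129, adjusted p 1.27e-06, all 11 below the median), and of -1.96 between both IPs (SE 0.137, adjusted p 1.97e-12). Gad2+ IPs of both regions differed by -0.12, which was not called (adjusted p 0.289), while cerebellar vGluT2+ IPs lay -2.78 from cerebral ones with no overlap.

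*Htr2a* encodes the excitatory receptor through which classic hallucinogens act, found mainly on cortical neurons. It lies on chromosome 14 at 74640840 to 74709494 (plus strand). Its control means of 23.7 ± 7.55 CPM in cerebral vGluT2+ IPs (n = 6), 22.1 ± 6.89 in cerebral Gad2+ IPs (n = 6), 20.1 ± 4.91 in PV+ IPs (n = 6), 17.6 ± 4.60 in SST+ IPs (n = 5) and 9.27 ± 5.41 in cerebral total RNA (n = 9) overlapped from neighbour to neighbour. Cerebellar Gad2+ IPs (2.08 ± 0.382, n = 6) lay under all of these, and cerebellar total RNA (1.19 ± 0.917, n = 7) and vGluT2+ IPs (0.730 ± 0.572, n = 5) came last. Over both genotypes cerebral total RNA ran from 2.58 to 19.3 CPM (median 8.67), Gad2+ IPs from 9 to 30.6 (median 18.5), PV+ IPs from 10.3 to 23.5 (median 20.9) and vGluT2+ IPs from 9.09 to 30 (median 19.9). These ranges all overlapped. All 4 cerebral IPs were called higher than total RNA, with log2 fold changes of 0.86 in Gad2+ (adjusted p 0.0125), 1.11 in PV+ (adjusted p 0.000879), 1.02 in SST+ (adjusted p 0.00094) and 0.88 in vGluT2+ IPs (adjusted p 0.00931). All 12, 11 and 12 IPs of the Gad2, PV and vGluT2 lines lay above the total RNA median, as did 8 of 9 SST+ IPs. With the composition covariate the values were 0.13 (adjusted p 0.315), 0.19 (adjusted p 0.14), -0.15 (adjusted p 0.556) and 0.00 (adjusted p 0.991), and none was called. Total RNA of the same line gave 0.78 in Gad2+ (adjusted p 0.0746) and 0.83 in vGluT2+ IPs (adjusted p 0.0609), and the mouse as a block 1.19 in the latter (adjusted p 0.0547). In no pair of cerebral cell types was *Htr2a* called, though PV+ IPs were above SST+ IPs with the covariate (0.36, adjusted p 0.000653). In the cerebellum Gad2+ IPs (1.29 to 3.69 CPM, median 2.21) exceeded total RNA (0.284 to 3.02, median 0.495) by 1.54 (SE 0.306, adjusted p 6.62e-05, all 12 above the median) and vGluT2+ IPs (0 to 1.48, median 0.301) lay -1.99 from Gad2+ IPs and -1.36 from total RNA with the covariate (adjusted p 0.0174). Both cerebellar IPs lay under all cerebral IPs of their line, by -3.01 and -5.10.

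*Htr2c* encodes the Gq receptor that is most abundant in choroid plexus and is also made by striatal and brain stem neurons. It spans chromosome X at 146962513 to 147197277 (plus strand) and hosts miRNA genes in its introns that share 0 exon bases with it. Control means were 98.8 ± 26.6 CPM in cerebral Gad2+ IPs (n = 6), 70.1 ± 20.7 in SST+ (n = 5) and 59.1 ± 17.3 in cerebral vGluT2+ IPs (n = 6), 49.1 ± 19.1 in cerebral total RNA (n = 9), 39.5 ± 10.7 in PV+ IPs (n = 6), 13.3 ± 9.99 in cerebellar total RNA (n = 7), 11.3 ± 9.44 in cerebellar vGluT2+ (n = 5) and 5.20 ± 2.71 in cerebellar Gad2+ IPs (n = 6). All neighbours in this order overlapped, and the spread within a group was wide. Over both genotypes *Htr2c* ran from 44.2 to 137 CPM in cerebral Gad2+ IPs (median 91.5), from 23.2 to 84.1 in total RNA (median 59.7), from 24.4 to 70 in vGluT2+ (median 62.8), from 18.1 to 48.5 in PV+ (median 41.9) and from 25.9 to 92.6 in SST+ IPs (median 73.5). Gad2+ IPs were the highest at the median and overlapped all the others. Against total RNA, Gad2+ IPs were higher by 0.72 (SE 0.221, adjusted p 0.0054, 8 of 12 above the median), but by 0.11 with the composition covariate (adjusted p 0.42) and by 0.62 against total RNA of the same line (adjusted p 0.0845). The covariate also placed PV+ (-1.10, adjusted p 5.72e-10), cerebral vGluT2+ (-0.71, adjusted p 1.14e-06) and cerebellar Gad2+ IPs (-1.06, adjusted p 0.0116) under total RNA, where none had been called without it. vGluT2+ IPs lay -0.68 (adjusted p 0.00886) and PV+ IPs -1.16 from Gad2+ IPs, all of them under the Gad2+ median, and PV+ IPs -0.77 from SST+ IPs (SE 0.212, adjusted p 0.00661, 11 of 11 below the median). SST+ IPs were not called against total RNA of their line, but were with the mouse as a block (0.74, adjusted p 0.00212) or with library totals without TMM (0.61, adjusted p 0.04), and lay -0.91 from it with the composition covariate (adjusted p 0.00198). The 8 genes of the choroid plexus list summed to between 45.8 and 4983 CPM in cerebellar total RNA, led by *Ttr*, and to between 15.2 and 558 in cerebellar Gad2+ IPs, and in the cerebrum to between 590 and 1368 in total RNA (median 841) against a median of 57.8 in Gad2+, 78.1 in PV+, 150 in SST+ and 52.2 in vGluT2+ IPs. Their part in the level of *Htr2c* was not tested in either region. Cerebellar IPs were lower than cerebral IPs by -3.85 in Gad2+ and -2.76 in vGluT2+ neurons.

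*Htr3a*, the channel subunit, marks a class of cortical interneurons born in the caudal ganglionic eminence. It lies on chromosome 9 at 48899213 to 48911099 (minus strand). Control levels fell in steps, from 12.8 ± 2.07 CPM in cerebral Gad2+ IPs (n = 6) to 6.0 ± 1.23 in cerebral total RNA (n = 9), 2.65 ± 0.337 in SST+ (n = 5) and 2.10 ± 0.418 in PV+ IPs (n = 6), and 0.541 ± 0.336 in cerebral vGluT2+ IPs (n = 6), and only SST+ and PV+ IPs overlapped. No cerebellar IP held more than 0.171 CPM. Over both genotypes Gad2+ IPs ran from 9.61 to 16.5 CPM (median 13.6), total RNA from 2.77 to 9.27 (median 5.37), PV+ IPs from 1.44 to 2.59 (median 2.07) and cerebral vGluT2+ IPs from 0 to 1.02 (median 0.426). None of these 4 groups overlapped another. Compared with total RNA the log2 fold change was 1.16 in Gad2+ (SE 0.112, adjusted p 1.85e-10), -1.43 in PV+ (SE 0.129, adjusted p 6.18e-11) and -3.81 in vGluT2+ IPs (SE 0.348, adjusted p 5.47e-11), and that against Gad2+ IPs was -2.68 in PV+ (SE 0.127, adjusted p 4.88e-15) and -4.92 in vGluT2+ IPs (SE 0.354, adjusted p 7.51e-12). SST+ IPs (2.09 to 2.92 CPM, median 2.81) lay under all total RNA of their line (4.68 to 8.04, median 6.2), at -1.09 (SE 0.138, adjusted p 2.55e-06). PV+ IPs lay -0.42 from SST+ IPs (SE 0.124, adjusted p 0.0114, 11 of 11 below the median), which in control libraries alone was -0.33 (adjusted p 0.257). Against the cerebral Gad2+ IPs no fold is given for the cerebellum, where the gene was at or near 0 in all 12 IPs.

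*Htr4* encodes a Gs receptor with a role in hippocampal and striatal signaling. Its control means in the cerebrum were 5.89 ± 0.938 CPM in Gad2+ IPs (n = 6), 2.58 ± 0.405 in SST+ (n = 5), 2.49 ± 0.407 in PV+ (n = 6) and 2.21 ± 0.827 in vGluT2+ IPs (n = 6), and 2.11 ± 1.01 in total RNA (n = 9). The Gad2+ IPs overlapped no other group and the rest overlapped each other. Cerebellar means were 0.367 CPM or less. Over both genotypes Gad2+ IPs ran from 2.25 to 7.17 CPM (median 4.49), total RNA from 0.538 to 3.93 (median 1.92), PV+ IPs from 1.37 to 3.34 (median 2.41) and vGluT2+ IPs from 0.811 to 3.13 (median 2.29). The low end of Gad2+ IPs, made up of HD libraries, overlapped the other groups. Log2 fold changes were 1.19 in Gad2+ IPs against total RNA (SE 0.217, adjusted p 1.98e-05, all 12 above the median), -1.0 in vGluT2+ (SE 0.2, adjusted p 0.000198) and -0.90 in PV+ IPs against Gad2+ IPs. SST+ IPs (1.62 to 3.16 CPM, median 2.72) were called higher than total RNA of their line (1.14 to 3.02, median 2.05) at 0.50 (SE 0.215, adjusted p 0.0493, 7 of 9 above the median), with -0.06 under the composition covariate (adjusted p 0.889) and an adjusted p of 0.0594 without the filter on low counts. The vGluT2+ IPs were not called against total RNA, but lay -0.50 from it with the composition covariate (adjusted p 0.0183). Cerebellar IPs were lower than cerebral IPs by -3.98 in Gad2+ and -3.44 in vGluT2+ neurons.

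*Htr7* encodes the other Gs receptor, known for roles in circadian timing and thalamic and hippocampal excitability. It lies on chromosome 19 at 35958734 to 36057507 (minus strand). Control means were 24.4 ± 3.15 CPM in SST+ (n = 5), 19.1 ± 2.27 in cerebral Gad2+ (n = 6), 17.9 ± 1.10 in PV+ (n = 6) and 17.7 ± 2.24 in cerebral vGluT2+ IPs (n = 6), and 12.0 ± 3.12 in cerebral total RNA (n = 9), with overlap between neighbours. The cerebellar groups, at 2.21 ± 0.902 in Gad2+ IPs, 1.63 in total RNA and 1.56 in vGluT2+ IPs, overlapped each other and lay under the cerebral ones. Over both genotypes SST+ IPs ran from 20.8 to 28.3 CPM (median 24.1) and total RNA of their line from 8.85 to 14 (median 11.9). All 9 SST+ IPs were above all 7 total RNA libraries, by 1.16 in log2 (SE 0.12, adjusted p 2.69e-07), and PV+ IPs (11.9 to 20 CPM, median 17.6) lay under all of them, at -0.46 (SE 0.0836, adjusted p 0.000171). Against cerebral total RNA (6.58 to 20.6 CPM, median 12.3), Gad2+ IPs (16.3 to 23.5, median 18.8) were higher by 0.57 (SE 0.141, adjusted p 0.000817, all 12 above the median) and PV+ IPs by 0.55 (SE 0.146, adjusted p 0.00133, 10 of 11), with 0.28 (adjusted p 0.00971) and 0.14 (adjusted p 0.241) under the composition covariate. Cerebral vGluT2+ IPs were not called against total RNA, with overlap and 11 of 12 above the median. The exception was the re-sequenced HD library at 4.2 CPM. Cerebellar Gad2+ IPs (0.474 to 3.12 CPM, median 2.59) were called higher than total RNA (0.437 to 4.87, median 1.14) at 0.68 (SE 0.292, adjusted p 0.0418, 11 of 12 above the median) and lay above vGluT2+ IPs (0.424 to 3.81, median 0.913), which were at -0.82 from them (adjusted p 0.0276, 10 of 11 below the median). The first was not called with the covariate (0.54, adjusted p 0.114), the mouse as a block (0.81, adjusted p 0.116), DESeq2 size factors (0.63, adjusted p 0.0604) or library totals without TMM (0.62, adjusted p 0.0728), nor the second in control libraries alone (-0.51, adjusted p 0.422). Cerebellar IPs lay under all cerebral IPs of their line, by -3.01 in Gad2+ and -3.63 in vGluT2+ neurons.

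Levels of different receptors were compared per kilobase of exon, since longer transcripts give more reads. On this scale of CPM per kb, *Htr2c* led in control cerebral Gad2+ IPs at 10.6 and made up 23.8% of the sum over the 9 genes, followed by *Htr1b* at 6.76 and *Htr3a* at 6.15, and *Htr4* was last at 1.2. PV+ IPs were led by *Htr7* at 5.26 CPM per kb, then *Htr2c* at 4.24. SST+ IPs were led by *Htr2c* at 7.51, *Htr7* at 7.18 and *Htr1a* at 6.34, and cerebral vGluT2+ IPs by *Htr2c* at 6.34 and *Htr1a* at 6.04, with *Htr3a* last at 0.26. In cerebral total RNA *Htr1a* (5.49 CPM per kb) and *Htr2c* (5.26) were the highest. Cerebellar Gad2+ IPs differed in makeup, since *Htr1b* at 10.3 CPM per kb gave 68.7% of the sum and *Htr5a* at 2.32 a further 15.5%. Cerebellar vGluT2+ IPs held little of any receptor, with *Htr2c* at 1.22 (SD 1.01) and *Htr1b* at 1.15 CPM per kb (SD 0.515) in front. The order of these genes was not resolved, since *Htr2c* ran from 4.66 to 26.6 CPM there. In cerebellar total RNA *Htr1b* at 3.47 gave 47.6% of the sum.

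For each receptor other than *Htr7* the genes with the most similar pattern are given, found by Pearson correlation of log2 level over the 54 control libraries, among 14327 protein-coding genes. The libraries share animals, depth and base composition, so r is a description of these libraries. *Htr1a* was most like *4930539E08Rik* (r = 0.982), *Gabra5* (0.981) and *Doc2a* (0.981). *Htr1b* followed *Thsd7a* (0.954), *Adarb2* (0.934) and *Dach1* (0.92), and *Htr1d* followed *Rasgrp2* (0.923), *Adcy5* (0.921) and *Slc35d3* (0.918). Nearest to *Htr5a* were *Clvs2* (0.961), *Gfra2* (0.957) and *Rasgrp1* (0.955). *Htr2a* was nearest *Neto1* (0.969), *Mef2c* (0.967) and *Col25a1* (0.962), and *Htr2c* nearest *Stc1* (0.942), *Pcdh11x* (0.938) and *Kcnj2* (0.937). The pattern of *Htr3a* was closest to *Lhx8* (0.973), *Gpr6* (0.972) and *Adora2a* (0.971). *Htr4* was closest to *Gpr149* (0.949), *Oprk1* (0.944) and *Grm5* (0.941).

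The effect of HD on the receptors was then tested within each cell type and in total RNA. The striatum is affected early in HD, its projection neurons lose much of their typical expression, and it receives a dense serotonin input. An IP reflects mRNA on the ribosomes of the whole tagged population, while total RNA also reflects all other cells. Comparisons of total RNA had the line as a covariate.

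Few genes were called in the cerebrum. In Gad2+ IPs edgeR called 0 of 9 receptors and 0.0279% of all genes, with 2 receptors (*Htr4*, *Htr1b*) and 9.15% of genes at an unadjusted p under 0.05, and DESeq2 called 1 receptor (*Htr4*) and 0.523% of genes. PV+ IPs had 0 of 9 by edgeR (0.034% of all genes), 0 at an unadjusted p under 0.05 (4.28%) and 0 by DESeq2 (0.287%). For SST+ IPs edgeR gave 0 of 9 (0% of all genes), with 0 at an unadjusted p under 0.05 (1.41%) and 0 by DESeq2 (0.0136%). The cerebral vGluT2+ IPs had 0 of 9 by edgeR (0.00697%), 1 at an unadjusted p under 0.05 (*Htr2a*, 7.28% of all genes) and 0 of the 6 for which DESeq2 gave an adjusted p (0.216%). In cerebral total RNA edgeR called 0 of 9 (0.141%), with 0 at an unadjusted p under 0.05 (6.62%) and 0 by DESeq2 (0.801%). Of the 9 receptors 6, 8, 8, 7 and 5 had a log2 fold change below 0 in these comparisons, with medians of -0.12, -0.18, -0.08, -0.18 and -0.01 against medians over all genes between -0.02 and 0.02.

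In the cerebellum Gad2+ IPs had 0 of 8 receptors called by edgeR (0.0142% of all genes), 1 at an unadjusted p under 0.05 (*Htr1a*, 2.3%) and 0 by DESeq2 (0.156%). In vGluT2+ IPs edgeR called 0 of 7 (2.11%), with 1 at an unadjusted p under 0.05 (*Htr1a*, 15.5%) and 0 of the 6 for which DESeq2 gave an adjusted p (5.04%). Cerebellar total RNA stood apart, since edgeR called 24.5% of all genes and 1 of 7 receptors, *Htr1b*, which was lower. DESeq2 called 34.4% of genes and 2 receptors (*Htr1b*, *Htr2a*), and 44.4% of genes and 3 receptors were at an unadjusted p under 0.05. In the order given, 3 of 8, 7 of 7 and 6 of 7 receptors had a log2 fold change below 0, with medians of 0.15, -0.71 and -0.79 against 0.00, -0.01 and -0.01 over all genes.

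**Figure D2:**
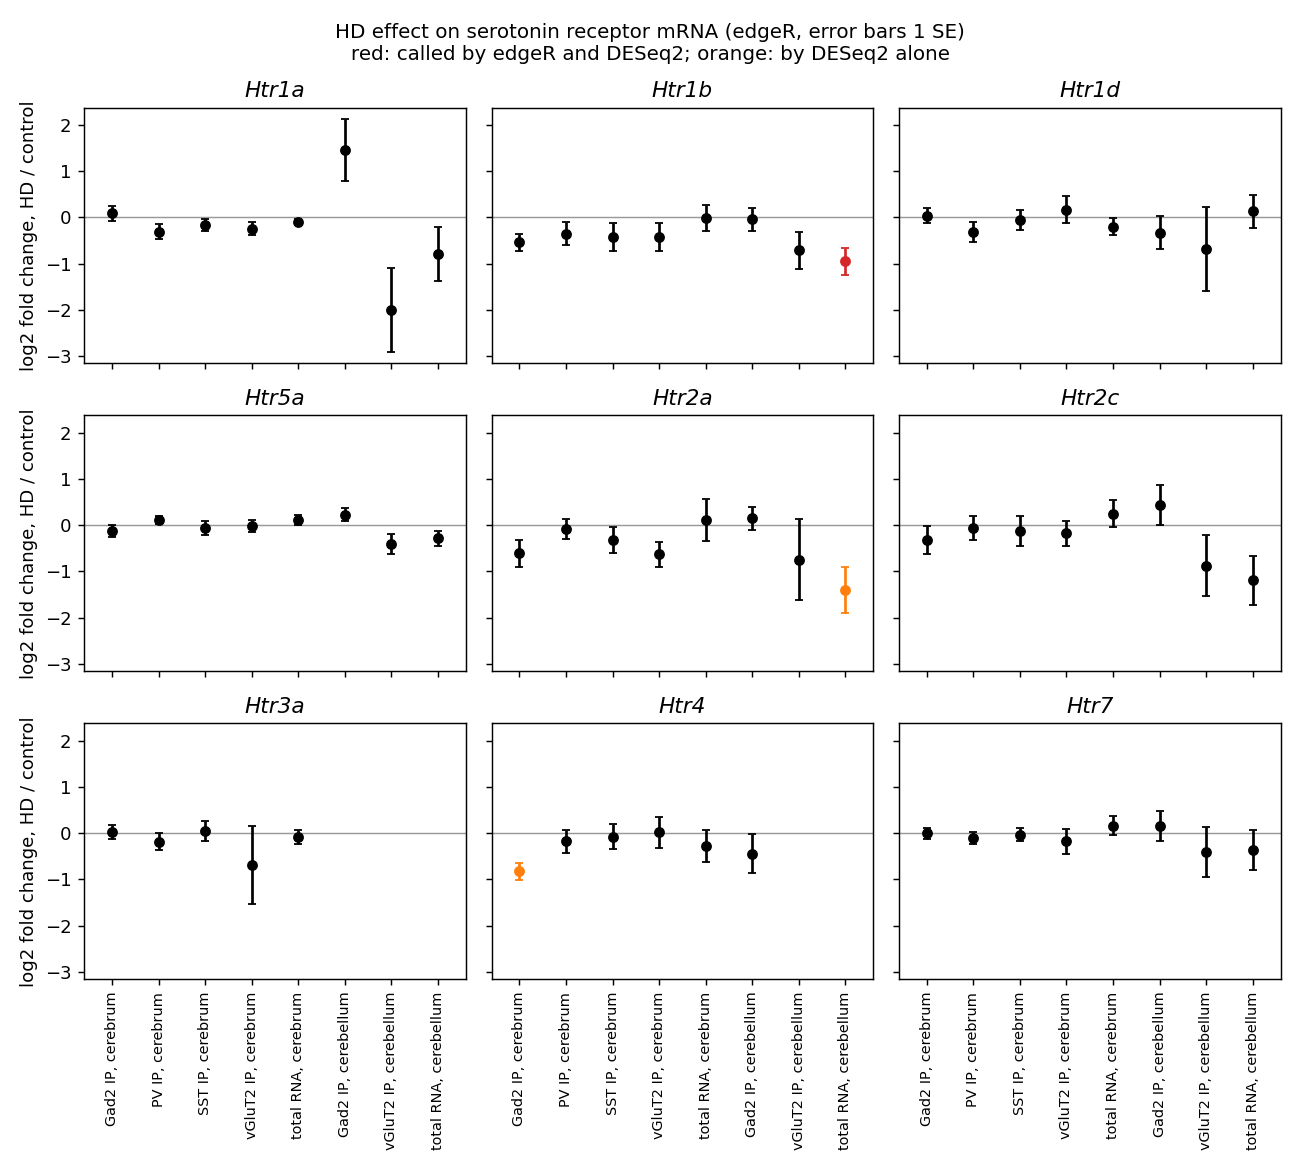
Log2 fold change of HD against control (points, edgeR) with 1 SE (bars) for each receptor in 6 groups of IPs and in total RNA of both regions; receptors too low to test have no point. *Htr1b* in cerebellar total RNA (-0.96) was called by both tools, *Htr4* in cerebral Gad2+ IPs (-0.82) and *Htr2a* in cerebellar total RNA (-1.40) by DESeq2 alone.

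*Htr4* had the smallest p of the receptors in the cerebral Gad2+ IPs, the group led by striatal projection neuron genes. Control IPs ran from 4.71 to 7.17 CPM (median 5.9) and HD IPs from 2.25 to 4.27 (median 3.35). All 6 HD IPs lay under all 6 control IPs, and no other receptor separated the genotypes in the comparisons of all libraries of a cell type or of total RNA. The share of all genes that separated in this way was not counted, so the separation by itself does not set *Htr4* apart. The log2 fold change was -0.82 (SE 0.183, unadjusted p 0.000505), with an adjusted p of 0.213 in edgeR and 0.00829 in DESeq2. Over leaving out each library it ran from -0.90 to -0.72, with edgeR adjusted p-values between 0.18 and 0.693. With the composition covariate it was -0.65 (adjusted p 0.318). Marker lists moved with it. The 10 genes of the striatal projection neuron list summed to between 5442 and 7166 CPM in control IPs (median 6348) and between 3297 and 5293 in HD IPs (median 4473), led by *Ppp1r1b* at a mean of 2240 and 1531, with 0 genes at 0. The 6 genes of the VIP and caudal eminence interneuron list summed to between 630 and 730 CPM in control and between 543 and 599 in HD IPs, led by *Lamp5* at a mean of 246 and 234, with 0 genes at 0. Neither list overlapped between genotypes. The second list did not single out interneurons, since it summed to between 856 and 1380 CPM in control cerebral vGluT2+ IPs. All 10 striatal genes had a log2 fold change below 0 (median -0.55), of which edgeR called 0 (0.0279% of all genes), DESeq2 4 (0.523%), and 9 had an unadjusted p under 0.05 (9.15%). The composition contrast also moved, being under -0.5 in control libraries 4 (-0.69) and 6 (-0.65) and in HD libraries 3 (-1.09), 4 (-0.76), 5 (-0.83) and 6 (-0.83), and between -0.04 and 0.09 in the other 6. HD libraries 1 and 2, at -0.02, held 3.2 and 4.27 CPM of *Htr4*, under all control IPs. The part of the lists and of the contrast in the difference was not tested.

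The other receptors of the Gad2+ IPs overlapped between genotypes. *Htr1b* ran from 23.1 to 41.5 CPM in control (median 33.2) and from 16.1 to 27.7 in HD IPs (median 22), with all 6 HD IPs under the control median and a log2 difference of -0.54 (SE 0.185, adjusted p 0.536). *Htr2a* ran from 12.3 to 30.6 CPM (median 23.3) and from 9 to 24.3 (median 12.2), and *Htr2c* from 56.4 to 124 (median 104) and from 44.2 to 137 (median 64.6). Within both genotypes these genes were high where the composition contrast was near 0 and low where it was under -0.5. *Htr2a* gave -0.61 (SE 0.297, adjusted p 0.536) and -0.14 with the composition covariate, and *Htr2c* -0.32 and 0.11.

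**Figure D3:**
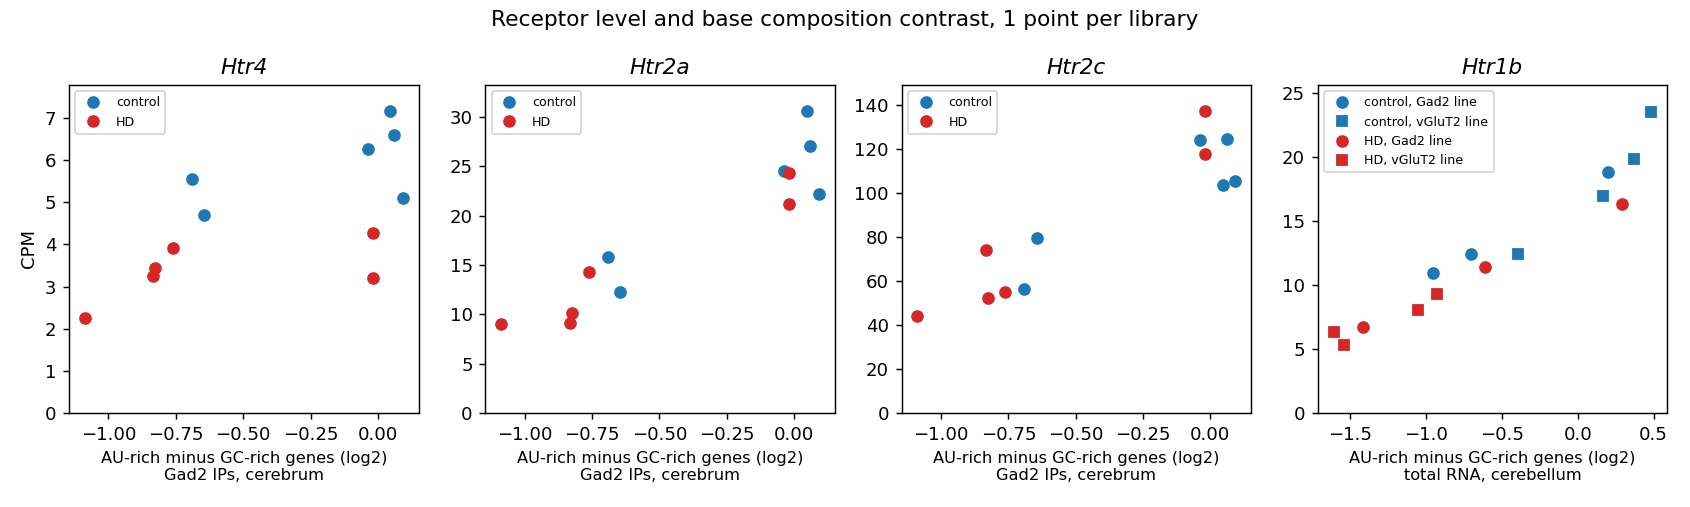
Level in CPM against the AU-rich minus GC-rich contrast (log2) of each library, for *Htr4*, *Htr2a* and *Htr2c* in cerebral Gad2+ IPs and for *Htr1b* in cerebellar total RNA, by genotype and, for the latter, line. HD libraries lie under all controls for *Htr4* (at most 4.27 CPM against at least 4.71), while *Htr2a* and *Htr2c* overlap and are low in libraries with a low contrast.

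In the remaining cerebral groups the receptor with the smallest p is given. *Htr1a* ran from 10.5 to 12.7 CPM in control PV+ IPs (median 11.1), and the 5 HD IPs held 9.46, 9.38, 5.53, 9.7 and 12.3. Of these HD IPs 4 were under all controls, and the re-sequenced library, at 12.3, was within the control range. The log2 fold change was -0.31 (SE 0.159, unadjusted p 0.0692, adjusted p 1). The HD IP at 5.53 was library 3, the one with high cerebellar markers, and without it the value was -0.18 (adjusted p 1). *Htr1b* in SST+ IPs was at 17.2, 17.8, 8.88, 11 and 19.9 CPM in control and 11.9, 13.9, 13 and 5.25 in HD libraries. These overlapped, all 4 HD IPs were under the control median, and the log2 fold change was -0.43 (SE 0.309, unadjusted p 0.19, adjusted p 1) and -0.38 with the composition covariate. The lowest value of each genotype came from the library with the lowest composition contrast, control library 3 (-0.70) and HD library 4 (-1.12). In cerebral vGluT2+ IPs *Htr2a* ran from 10.6 to 30 CPM in control (median 26) and from 9.09 to 21.9 in HD IPs (median 15.2). The ranges overlapped with all 6 HD IPs under the control median, and the log2 fold change was -0.63 (SE 0.279, unadjusted p 0.0397, adjusted p 0.677, DESeq2 not called) and -0.28 with the composition covariate. In cerebral total RNA *Htr1a* ran from 23.1 to 28.4 CPM in control (median 23.9) and from 19.3 to 25.6 in HD libraries (median 21.3), with overlap and a log2 difference of -0.10 (SE 0.0701, unadjusted p 0.171, adjusted p 0.841). The 10 striatal projection neuron genes summed to less in HD in these IPs too, at 386 to 520 CPM in control against 277 to 369 in HD PV+ IPs (*Pde10a* leading), 601 to 782 against 486 to 577 in SST+ IPs (*Penk* leading) and 414 to 537 against 309 to 397 in cerebral vGluT2+ IPs (*Ppp1r1b* leading), with 0 genes at 0 and no overlap. *Htr4* had log2 fold changes of -0.18, -0.08 and 0.02 there and overlapped between genotypes.

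Whether an HD effect differed between cell types was tested as an interaction with that of cerebral Gad2+ IPs, which enter each of these tests. For PV+ IPs edgeR called 0 of 9 receptors (0% of all genes), with 0 at an unadjusted p under 0.05 (3.05%) and 0 by DESeq2 (0.00685%). For SST+ IPs the counts were 0 (0%), 1 (*Htr4*, 1.5%) and 0 (0.00687%), and for vGluT2+ IPs 0 (0%), 1 (*Htr4*, 1.44%) and 0 (0.00692%), in the same order. The HD effect on *Htr4* was -0.18 in PV+, -0.08 in SST+ and 0.02 in vGluT2+ IPs, and differed from that in Gad2+ IPs by 0.62 (SE 0.305, unadjusted p 0.0543, adjusted p 0.909), 0.74 (SE 0.299, unadjusted p 0.0214, adjusted p 0.998) and 0.83 (SE 0.367, unadjusted p 0.0337, adjusted p 1). The difference of the *Htr4* effect between cell types was thus not called.

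In the cerebellar IPs *Htr1a* had the smallest p of the receptors in both cell types, at levels near the floor. Gad2+ IPs held 0 to 0.916 CPM in control (median 0.273) and 0.478 to 1.83 in HD libraries (median 0.811). All 6 HD IPs exceeded the control median, with overlap, and the log2 fold change was 1.45 (SE 0.668, unadjusted p 0.0464, adjusted p 1). vGluT2+ IPs held 0.656, 1.94, 0.596, 0.582 and 5.29 CPM in control and 0 to 1.63 in HD libraries (median 0.172). The ranges overlapped with 4 of 6 HD IPs under the control median, the control library at 5.29 was the one with the high vGluT2 list, and the log2 fold change was -2.0 (SE 0.905, unadjusted p 0.0444, adjusted p 0.306, DESeq2 0.187). Without that library it was -1.0 (adjusted p 0.646). As an interaction, vGluT2+ against Gad2+ IPs had 0 of 7 receptors called by edgeR (0.107% of all genes), 2 at an unadjusted p under 0.05 (*Htr1a*, *Htr5a*, 7.08%) and 0 by DESeq2 (0.544%). The difference was -3.46 for *Htr1a* (SE 1.2, unadjusted p 0.00812, adjusted p 0.487) and -0.67 for *Htr5a* (SE 0.232, unadjusted p 0.00833, adjusted p 0.492). Marker lists also moved in the vGluT2+ IPs. The 5 granule cell genes, led by *Cbln3* (-0.80), summed to between 7444 and 10210 CPM in control and between 4646 and 7161 in HD IPs, and the 4 medial habenula genes to between 10.3 and 17.8 and between 2.63 and 7.81, both without overlap. The habenula list did not single out habenula neurons in the cerebellum, since it summed to between 29.09 and 45.05 CPM in control Gad2+ IPs. The 6 VIP and caudal eminence genes, mostly *Calb2*, summed to between 1410 and 1944 in control and between 1792 and 2751 in HD IPs, which overlapped. The part of these lists in the levels of the receptors was not tested.

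*Htr1b* in cerebellar total RNA was the single receptor called by edgeR for HD. In the Gad2 line control libraries held 10.9, 18.8 and 12.4 CPM and HD libraries 11.4, 6.75 and 16.3. In the vGluT2 line control libraries held 19.8, 17, 12.4 and 23.5 CPM and HD libraries 5.29, 8.05, 6.34 and 9.28. The genotypes overlapped in the Gad2 line and were apart in the vGluT2 line, and all 7 HD libraries were under the control median. *Htr1b* fell, with a log2 difference of -0.96 (SE 0.282, adjusted p 0.0343, DESeq2 0.00536). The composition contrast was -0.95, 0.20 and -0.70 in control and -0.61, -1.42 and 0.30 in HD libraries of the Gad2 line, and 0.37, 0.17, -0.39 and 0.48 in control and -1.54, -1.05, -1.61 and -0.93 in HD libraries of the vGluT2 line. It separated the genotypes in the vGluT2 line as *Htr1b* did, so there the contrast and the genotype cannot be told apart. With the contrast as a covariate *Htr1b* gave -0.22 (adjusted p 0.288). Each line alone gave -0.28 (adjusted p 1) in the Gad2 line and -1.47 (adjusted p 0.000954) in the vGluT2 line. Over all genes the test called 3544 in both lines, 137 with the covariate, 0 in the Gad2 line alone and 7565 in the vGluT2 line alone. Purkinje cell genes moved as well, since the 5 of the list summed to between 2328 and 2690 CPM in control (*Car8* leading at 1119) and between 1488 and 2164 in HD libraries (*Car8* at 808), with 0 genes at 0.

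Other lists moved in the same libraries. In the vGluT2 line the 5 microglia genes (*Csf1r* leading) summed to between 73.5 and 85.9 CPM in control and between 129 and 143 in HD libraries, and the 4 vGluT1 genes, mostly *Slc17a7*, to between 438 and 746 and between 1235 and 1392. There the 6 VIP and caudal eminence genes, mostly *Calb2*, summed to between 376 and 657 in control and between 1206 and 1578 in HD libraries, and the 5 parvalbumin genes to between 2625 and 3284 and between 4090 and 4838. The VIP list did not single out interneurons in the cerebellum, since it summed to between 1410 and 1944 in control vGluT2+ IPs against 268 to 353 in Gad2+ IPs. Nor did the parvalbumin list, which summed to between 3076 and 3470 in control vGluT2+ IPs and between 5354 and 8425 in Gad2+ IPs. The 5 oligodendrocyte genes, led by *Mbp*, were lower in HD, at 4095 to 4824 against 2890 to 4061 in the vGluT2 line and 3657 to 4270 against 2721 to 2915 in the Gad2 line. The 5 Golgi and molecular layer interneuron genes, led by *Kit*, summed to between 388 and 497 in control and between 300 and 337 in HD libraries of the vGluT2 line, and the 3 GABAergic genes, led by *Gad1*, to between 751 and 805 and between 621 and 708 in the Gad2 line, neither with overlap. In the other line both lists overlapped. Over both lines the 4 medial habenula genes, which did not single out the habenula in the cerebellum, lay between 13.7 and 22.2 CPM in control and between 5.69 and 13.1 in HD libraries. In the Gad2 line the microglia, vGluT1, VIP and parvalbumin lists overlapped between genotypes. There the somatostatin list (235 to 286.5 against 153.2 to 193.1) and the vGluT2 list (88.56 to 106.1 against 74.69 to 81.14) were lower in HD without overlap. So were the astrocyte genes (2188 to 2395 against 2011 to 2160). In the vGluT2 line the somatostatin, vGluT2 and astrocyte lists overlapped. The part of these lists in the fall of *Htr1b* was not tested. In the IPs of cerebellar Gad2+ neurons, where *Htr1b* was highest, its HD effect was -0.04, at 30.6 to 61 CPM in control (median 51.8) and 17.4 to 64.7 in HD libraries (median 51.6).

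The call of *Htr1b* ended when any of 10 libraries was left out. In the Gad2 line these were control library 2 (adjusted p 0.0692) and HD library 2 (0.0681). In the vGluT2 line they were control libraries 1 (0.0714), 2 (0.0701), 3 (0.0539) and 4 (0.0719) and HD libraries 1 (0.0644), 2 (0.074), 3 (0.0774) and 4 (0.0688). The log2 fold change over all leave-outs ran from -1.16 to -0.83.

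*Htr2a* in cerebellar total RNA was called by DESeq2 (adjusted p 0.0169) and missed the threshold in edgeR (log2 fold change -1.40, SE 0.497, adjusted p 0.0512). Gad2 line libraries held 0.284, 1.66 and 0.529 CPM in control and 0.309, 0.377 and 1.03 in HD mice, and vGluT2 line libraries 0.879, 1.12, 0.839 and 3.02 in control and 0.46, 0.341, 0.439 and 0.31 in HD mice. Again the genotypes overlapped in the Gad2 line and not in the vGluT2 line, and 6 of 7 HD libraries were under the control median. The vGluT2 line alone gave -2.05 (adjusted p 0.00549), and the composition covariate -0.23 (adjusted p 0.827). In edgeR the call appeared when Gad2 line control library 1 (adjusted p 0.0206), control library 3 (0.0288) or HD library 3 (0.00573) was left out. Without vGluT2 line control library 4, the one with serotonin neuron markers, *Htr2a* gave -0.99 (adjusted p 0.113). *Htr2c* (-1.19, SE 0.529, adjusted p 0.0975) was called without Gad2 line HD library 3 (-1.55, adjusted p 0.0255).

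Signaling partners of the receptors were read from fixed lists of 8 Gi/o genes (Gi/o alpha subunits and the potassium channels they open), 8 Gq genes, 10 Gs genes and 7 proteins that bind or regulate receptors. For HD against control, edgeR called 0 of the 8, 8, 10 and 7 tested in the cerebral IPs, cerebral total RNA and cerebellar IPs. At an unadjusted p under 0.05 there were 3, 2, 1 and 2 in cerebral Gad2+ IPs (9.15% of all genes) and 2, 3, 3 and 1 in cerebral vGluT2+ IPs (7.28%), and at most 2 of a list elsewhere. DESeq2 called 1 of 10 Gs genes in cerebral total RNA (0.801% of all genes) and 0 in the others. List medians in these 7 comparisons lay between -0.41 and 0.13. In cerebellar total RNA, where 24.5% of all genes were called, 1 Gi/o gene was higher and 1 lower (*Gnai2* 0.61, *Kcnj9* -0.43), 1 Gq gene higher and 4 lower (*Gna11* 0.55, *Plcb4* -1.32, *Itpr1* -0.93, *Plcb1* -1.18, *Prkca* -0.68), 1 Gs gene higher and 2 lower (*Prkaca* 0.38, *Adcy1* -0.74, *Gnal* -0.63), and 2 partners higher and 2 lower (*Arrb2* 0.59, *Dlg4* 0.39, *Mpdz* -1.0, *Ric3* -0.69). List medians there were -0.19, -0.58, -0.08 and 0.36 against -0.01 over all genes.

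Between IPs and total RNA, in comparisons that called 63.4% to 73.2% of all genes, the signaling lists were read as counts, and no difference between cell types was tested. Of the 8 genes of the Gq list, which carries the signal of *Htr2a* and *Htr2c*, 5 were higher and 1 lower in PV+ (median 1.03), 7 and 1 in SST+ (1.22), 5 and 3 in cerebral vGluT2+ (0.67), 2 and 3 in cerebral Gad2+ (-0.09), 6 and 2 in cerebellar Gad2+ (1.18) and 1 and 5 in cerebellar vGluT2+ IPs (-0.40), beside medians over all genes between -0.01 and 0.04. The gene with the smallest p was *Plcb3* in PV+ (1.79), *Plcb4* in SST+ (2.19) and *Itpr1* in cerebellar Gad2+ IPs (2.41). Of the 8 Gi/o genes 0 were higher and 3 lower in cerebral Gad2+, 2 and 4 in PV+, 3 and 2 in SST+, 5 and 2 in cerebral vGluT2+, 3 and 2 in cerebellar Gad2+ and 5 and 1 in cerebellar vGluT2+ IPs, with *Gnai2* lower in each and medians of -0.11, -0.11, 0.10, 0.45, -0.05 and 0.46. The 10 Gs genes split 4 and 4, 4 and 2, 6 and 2, 1 and 3, 5 and 4, and 1 and 4 in the same order of IPs (medians 0.00, 0.15, 0.50, -0.03, 0.22 and -0.22), and *Adcy5* was higher in cerebral Gad2+ (1.01) and lower in cerebral vGluT2+ IPs (-1.20). Receptor partners split 1 and 4, 3 and 4, 2 and 2, 2 and 3, 2 and 2, and 3 and 3 of 7, with medians of -0.31, -0.22, -0.22, 0.17, 0.05 and 0.16.

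Genes of serotonin synthesis, transport and breakdown (*Tph1*, *Tph2*, *Ddc*, *Slc6a4*, *Slc18a2*, *Maoa*, *Maob*, *Fev*) were read in the same comparisons, with the same share of all genes called. Of those tested, 0 were higher and 6 lower of 7 in cerebral Gad2+ (median -1.10), 0 and 5 of 7 in PV+ (-1.02), 1 and 5 of 8 in SST+ (-0.45), and 0 and 6 of 8 in cerebral vGluT2+ IPs (-1.10). The cerebellum had 0 higher and 4 lower of 5 in Gad2+ (-1.47), and 1 and 2 of 6 in vGluT2+ IPs (0.11). *Tph2*, which makes serotonin in neurons, had a control mean of 7.38 CPM in cerebral total RNA (1.66 to 19.5) and 1.45 in cerebellar total RNA (0.401 to 7.3). In HD comparisons edgeR called 0 genes of this list, DESeq2 0, and at most 1 had an unadjusted p under 0.05. Over all genes, HD against control gave 0% to 24.5% called by edgeR and 0.0136% to 34.4% by DESeq2. Between 1.41% and 44.4% of all genes had an unadjusted p under 0.05. The list median was between -0.43 and 0.15.

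Of the 5 other receptor genes, *Htr6*, a Gs receptor, had control means of 4.93 CPM in cerebral Gad2+ IPs and 4.3 in cerebral total RNA. *Htr5b* was highest in cerebral vGluT2+ IPs at 3.75 CPM, where it exceeded total RNA (2.91) by 0.57 in log2 (adjusted p 0.00506), and was at 0.534 in cerebral Gad2+ IPs, -2.26 from total RNA (adjusted p 9.72e-09). *Htr1f* reached 1.46 CPM in cerebral vGluT2+ IPs, and *Htr2b* and *Htr3b* were at or under 0.261 in every control group. For HD against control edgeR and DESeq2 called 0 of the 5 in each comparison, where edgeR called 0% to 24.5% and DESeq2 0.0136% to 34.4% of all genes. An unadjusted p under 0.05 was found for 1 of 3 tested in cerebral Gad2+ (9.15% of all genes) and in PV+ IPs (4.28%).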

How the data were processed

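Reads had been aligned with STAR and quantified with Salmon by the authors (nf-core/rnaseq 3.0, versions of STAR and Salmon not given), who deposited the estimated counts of each gene as they were, not normalized. The submitters' notes name the build GRCm38.p6 and no annotation release. Values that were not whole, at a tolerance of 1e-09, made up 8.57%, and each value was rounded to a whole number here. The 92 spike-ins, at most 4.45% of a library, were not used. GENCODE M21 gave symbols, gene types, positions, exon lengths and GC content, and held 55141 of the 55401 genes. Over 201 pairs of replicates of a group chi-square per degree of freedom was at least 8.37, so no library was a copy of another of its group. Pairs across groups were not compared.

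Unless another tool is named, p-values are from edgeR 4.0.16 (quasi-likelihood, TMM, R 4.3.3, limma 3.58.1). Genes tested were protein-coding, with a mean count above 10 over the libraries of the comparison. Adjustment was by Benjamini-Hochberg over all genes tested, and 0.05 or less was called. SE is that of the log2 fold change. IPs were compared with all total RNA of the region outside the SST line, except SST+ IPs, which were compared with that of their line. Log2 levels had 0.5 added to CPM. Tables and figures were made in Python 3.11.15 with matplotlib 3.10.9, pandas 2.3.3 and numpy 2.4.6. Alternatives were DESeq2 1.42.0 and its size factors, no filter on low counts, filterByExpr, all gene types, the replicate number or the mouse as a block, *Xist* as a covariate, each library or the re-sequenced one left out, SST total RNA added, control libraries only, library totals without TMM, and total RNA of the same line. The composition covariate was added after the spread of *Htr2a* and *Htr2c* between libraries had been seen, and each line alone after the many calls of cerebellar total RNA had been seen.

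The receptors and all lists were chosen with earlier results of these data known. Genes of the lists named by result are called ones, at most 5 per list and comparison, smallest p first, and marker genes that lead a sum. By their labels IPs and total RNA came in part from the same mice, and so did both regions.

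Several limits hold. Groups had 3 to 9 mice, *Htr3a* and *Htr4* were near 0 in the cerebellum, and counts per gene do not tell splice or editing forms of *Htr2c* apart. Bulk levels average all cells of a line, and the cerebrum joins striatum, cortex, thalamus and brain stem, so a receptor cannot be placed in a region. The mRNA of a receptor on ribosomes is not its protein, which is often far away on axons. Sex was not used beyond *Xist*, and the base composition of libraries was uneven between IPs and total RNA and between genotypes in some groups.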

Additional observations from a re-analysis of the deposited data

Results flagged for a closer look

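In each group of 4 to 10 libraries with a mean over 1 CPM, the highest and the lowest value of each receptor were tested for a gap to the next value that is large beside the range of the group (Dixon). Of 111 such groups 14 held a value marked in this way, and chance marks about 1 in 20.

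*Htr1a* was 5.29 CPM in control cerebellar vGluT2+ IP 5 (next 1.94) and 4.54 in control cerebellar total RNA 4 of the vGluT2 line (next 0.588). The latter library also had the highest *Htr2a* at 3.02 (next 1.12) and *Htr7* at 4.87 (next 1.38). Control cerebral vGluT2+ IP 1 was lowest for *Htr1b* at 5.57 (next 10.8) and *Htr2c* at 24.4 (next 60.5), and control PV+ IP 6 for *Htr2a* at 10.3 (next 20.9) and *Htr2c* at 18.1 (next 40.9). Control cerebellar Gad2+ IP 5 was highest for *Htr1d* at 4.91 (next 1.92) and lowest for *Htr7* at 0.474 (next 2.1). The re-sequenced HD cerebral vGluT2+ IP was highest for *Htr5a* at 31.4 (next 24.5) and lowest for *Htr7* at 4.2 (next 16.5). *Htr2c* was high in HD cerebellar Gad2+ IP 2 at 16.9 (next 6.3), and *Htr7* in control cerebral Gad2+ IP 1 at 23.5 (next 19.3). The cause was not tested for any of them.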

How the results depend on the processing

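Over all alternatives 2209 values of 202 results in 24 comparisons were recomputed. Of these 2147 gave no other call, 35 lost a call, 21 gained one and 6 changed sign with a call on either side. The cause was not tested.

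The 6 that changed sign did so with the composition covariate in IPs against total RNA, where the contrast moved largely with the kind of library. They were *Htr1b* in PV+ (-0.24) and SST+ IPs (-0.46), *Htr2a* (-0.15), *Htr2c* (-0.91) and *Htr4* (-0.0634) in SST+ IPs, and *Htr4* in cerebral vGluT2+ IPs (-0.50). With this covariate 3 receptors were called in SST+ IPs, where 6 had been. Against total RNA of the same line 5 receptors were called in cerebral Gad2+ IPs, where 8 had been. The share of all genes called was 63.4% and 63.5% without these alternatives and is not given with them. The counts thus do not set the receptors apart.

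For HD against control, DESeq2 called 1 receptor in cerebral Gad2+ IPs (0.523% of all genes), where edgeR had called 0 (0.0279%). In cerebellar total RNA edgeR had called 1 (24.5% of all genes). The count was 2 with DESeq2 (34.4%), with DESeq2 size factors, with *Xist* as a covariate and in the vGluT2 line alone. It was 0 with the composition covariate and in the Gad2 line alone. Leaving out each library gave 0 to 3, with 3 called without HD library 3 of the Gad2 line. The numbers of all genes called with the composition covariate and in each line alone stand beside *Htr1b* above. For the remaining alternatives the share of all genes is not given, so these counts do not set the receptors apart.

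The replicate number as a block gave 0 calls in cerebellar total RNA, with *Htr1b* at -0.99 (adjusted p 0.121). HD and control replicates of a number are different mice. Of 29 control IPs with an HD IP of the same number, 9 correlated best with that one after group means were taken out, a hint from the data and not the design. The block moved the genes called from 3544 to 9 in cerebellar total RNA and from 285 to 108 in cerebellar vGluT2+ IPs. The mouse as a block in IPs against total RNA changed no call but those given with *Htr5a*, *Htr2a*, *Htr2c* and *Htr7*.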
